A study of Mus musculus with 40 samples.

Results

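The comparison described here is that of thyroid hormone under a control antibody in mouse brown fat: 5 mice given the control antibody and then T3 and T4, against 5 mice given the control antibody alone, all collected 7 d after the antibody. The mice were chosen by the group named in their titles, and they are 10 of the 40 mice of the series. All mice were C57BL/6 males, aged 10 to 12 weeks according to the series design text and 10 to 14 weeks according to the sample protocol. Each of the 10 had received 1 intraperitoneal injection of 40 mg/kg of an antibody against ragweed, a plant allergen, which served as the isotype control. From day 2 the hormone mice also received daily T4 at 1 ug/g body weight, together with T3 at 0.05 ug/g. The labels do not say whether the mice without hormone were injected daily with the solvent, so hormone and repeated injection cannot be told apart here. The series also holds 5 control antibody mice without hormone at 15 h and 5 at 5 d, and 20 mice given antibodies against the Notch ligands Jag1 and Jag2 (20 mg/kg each), of which 5 received the same hormone and were collected at 7 d. These serve below only as reference points. Transcripts were counted by bulk RNA sequencing of single 50-base reads. In bulk tissue, fewer cells of a type and less RNA per cell cannot be told apart.

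Brown fat burns fat and glucose to make heat, through the uncoupling protein Ucp1 in the inner mitochondrial membrane. It is a classic target of thyroid hormone: brown adipocytes turn the prohormone T4 into the active T3 with the deiodinase Dio2, and T3 acts through nuclear receptors encoded by Thra and Thrb, which pair with retinoid X receptors on DNA. Noradrenaline from sympathetic nerves acts beside it through beta-adrenergic receptors and cAMP.

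Of 17079 genes tested, 7378 (43.2%) passed an adjusted p of 0.05 (edgeR's quasi-likelihood test, Benjamini-Hochberg) and are said to be called. Of these, 3463 (20.3% of all genes tested) were higher and 3915 (22.9%) lower in the hormone mice. For 5093 genes (29.8%) the values of the hormone mice and the mice without hormone did not overlap. The change was at least 4-fold for 694 of the higher and 338 of the lower genes. With so many calls, the number of genes called in any list below has to be read against those shares.

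The mice without hormone at 7 d differed from the control antibody mice of earlier times. Between those groups, 1559 genes (9.13%) were called at 7 d against 5 d, 7698 (45.1%) at 7 d against 15 h and 6214 (36.4%) at 5 d against 15 h. Against the 5 d mice the hormone group differed in 4057 genes (23.8%), of which 10.3% of all genes tested were higher and 13.5% lower. Against the 15 h mice it differed in 2668 genes (15.6%), with 7.32% higher and 8.3% lower. These comparisons differ in time as well as in hormone, and they share the hormone mice. The 5 hormone mice lay above all 15 control antibody mice without hormone for 1.58% of genes and below all of them for 0.708%, and 382 called genes were among these. In what follows, a gene in which this held is said to lie beyond all 15 control mice.

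Library totals ran from 18928753 to 25301142 counts with hormone and from 12217623 to 23985134 without, and did not differ beyond the spread between mice (exact permutation p = 0.254). Libraries differed between the groups in how counts ran with the length of the transcript. The slope of log2 expression on log2 exonic length was 0.0165 to 0.293 with hormone and -0.634 to -0.0576 without (exact permutation p = 0.00794, the smallest that 5 against 5 mice allow; 0.0249 adjusted over 22 library measures). Mouse 4 without hormone had the lowest slope of the 10 mice (-0.634) and the lowest library total (12217623). It also had the fewest genes with a count (17213) and the highest share of mitochondrial genome counts (25.2%). Without this mouse 5977 genes were called. In the shortest quintile of protein-coding genes by exonic length (2227 genes) 58.8% were lower and 6.87% higher, with a median log2 fold change of -0.76. In the longest quintile 5.62% were lower and 43.3% higher, with a median of 0.51. With per-library trends on length and GC content removed, 2999 genes were higher (17.6%) and 3653 lower (21.4%), and 4956 of the 7378 calls were made again in the same direction. The medians of the quintiles then lay between -0.25 and -0.03. Whether the slope is a property of the RNA or of the tissue was not tested, and values with those trends removed are given beside many of the results.

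**Figure D1:**
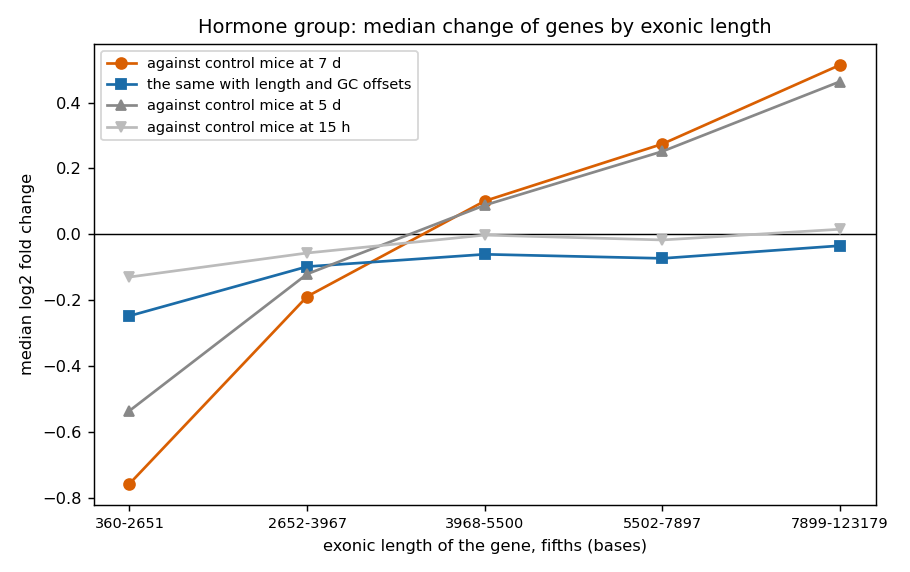
Median log2 fold change of the hormone group (vertical axis) for genes in quintiles of exonic length in bases (horizontal axis). Circles use the control antibody mice at 7 d, squares the same mice with length and GC trends removed, and triangles the control mice at 5 d (up) and 15 h (down). The medians climb from -0.76 in the shortest to 0.51 in the longest quintile, climb likewise against the 5 d mice, and stay between -0.13 and 0.02 against the 15 h mice.

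Genes of mitosis rose nearly as a whole list. Of 24 members 23 rose, against 20.3% of all genes tested, and none fell (22.9% of all genes), with a median log2 fold change of 3.48 over the list against 0.04 over all genes tested. In 22 of them the hormone mice lay above all 15 control mice (1.58% of all genes). Against the 5 d mice 22 members were higher (10.3% of all genes), with a median of 2.17. Against the 15 h mice 22 were higher (7.32%), with a median of 2.95. With length and GC trends removed 23 were higher (17.6%).

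The 4 members with the largest change encode a kinetochore protein (Cenpf), a protein that coats mitotic chromosomes and marks cycling cells (Mki67), the DNA topoisomerase that untangles sister chromatids (Top2a) and a kinase of the spindle checkpoint (Bub1). Genes of this kind are commonly switched on in G2 and M phase through a promoter element called the cell cycle homology region, near CCAAT boxes. The RefSeq promoters of these 4 genes (GRCm38.p6, from 250 bases before to 30 after the transcription start, 5′ to 3′ on the gene's own strand) are shown. They were taken by the size of the change, and all 4 carry both elements. Capitals mark TTTGAA or TTCGAA, on either strand, and CCAAT, on either strand.
Cenpf, chr1:189688057-189688336, minus strand: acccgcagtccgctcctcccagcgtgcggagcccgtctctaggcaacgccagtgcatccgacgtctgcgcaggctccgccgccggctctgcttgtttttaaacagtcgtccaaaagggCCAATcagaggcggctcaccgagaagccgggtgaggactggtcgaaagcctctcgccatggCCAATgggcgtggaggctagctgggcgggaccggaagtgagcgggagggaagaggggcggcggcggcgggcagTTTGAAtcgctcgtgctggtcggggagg
Mki67, chr7:135716350-135716629, minus strand: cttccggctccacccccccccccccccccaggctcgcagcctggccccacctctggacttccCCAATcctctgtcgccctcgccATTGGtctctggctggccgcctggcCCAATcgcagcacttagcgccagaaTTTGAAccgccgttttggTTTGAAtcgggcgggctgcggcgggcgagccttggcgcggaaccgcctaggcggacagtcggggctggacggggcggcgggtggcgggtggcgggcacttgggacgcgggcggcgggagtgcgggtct
Top2a, chr11:99024160-99024439, minus strand: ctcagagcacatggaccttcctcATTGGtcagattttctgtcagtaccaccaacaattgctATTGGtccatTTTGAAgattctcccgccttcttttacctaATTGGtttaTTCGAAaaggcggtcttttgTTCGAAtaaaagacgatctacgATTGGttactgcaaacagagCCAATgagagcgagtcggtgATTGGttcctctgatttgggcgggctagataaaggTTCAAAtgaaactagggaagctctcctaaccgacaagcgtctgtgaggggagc
Bub1, chr2:127831830-127832109, minus strand: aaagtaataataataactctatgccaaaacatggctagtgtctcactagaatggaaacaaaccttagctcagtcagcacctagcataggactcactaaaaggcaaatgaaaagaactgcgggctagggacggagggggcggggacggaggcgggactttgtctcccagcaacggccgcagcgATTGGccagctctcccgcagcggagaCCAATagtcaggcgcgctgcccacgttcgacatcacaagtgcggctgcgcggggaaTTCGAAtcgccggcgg
In windows from 250 bases before to 50 after the start, the cell cycle homology letters were found in 15 of the 20 promoters held for 19 members of the list (75%), and in 14.24% of the 14840 promoters of tested genes. CCAAT was found in 17 (85%) against 37.09%, and both in 15 (75%) against 5.728%. Over all promoters of called higher genes the share with both was 6.243%, and over those of genes not called 5.446%. A match describes the letters and is not evidence of a working site.

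Mki67 (bases 135689784 to 135716361 of chromosome 7, GRCm38) stood at 27.6, 34.7, 50.7, 48.0 and 72.6 CPM (read counts scaled to library size and composition) in the 5 hormone mice. Without hormone it stood at 2.77, 1.23, 1.99, 0.253 and 0.670 CPM. Every hormone mouse was far above every mouse without hormone, and also above the 5 d (1.58 to 7.52 CPM) and 15 h mice (3.03 to 9.84 CPM). The log2 fold change was 5.02 (SE 0.57, adjusted p = 4.43e-07, edgeR). Top2a ran from 18.6 to 41.3 CPM with hormone and from 0.253 to 1.65 without, a change of 4.85 (SE 0.51, adjusted p = 1.57e-07). Cenpf and Bub1 stood at 5.04 to 15.6 against 0.176 to 0.373 CPM and 2.92 to 5.04 against 0 to 0.267 CPM, and neither overlapped between the groups. Cdk1, the kinase that drives entry into mitosis, rose 11.4-fold, and Foxm1, the transcription factor of this gene programme, 12.4-fold. Both lay beyond all 15 control mice. The member that did not rise was Ube2c, which ran from 2.97 to 89.7 CPM with hormone and 0.373 to 321 without, a wide scatter within each group (log2 fold change -1.24, SE 1.74, adjusted p = 0.591). Mouse 5 without hormone held its highest value, and also the highest summed skeletal muscle markers of its group (22997 CPM). Without that mouse the log2 fold change of Ube2c was 2.20 (adjusted p = 0.357). What part muscle tissue had in this scatter was not tested.

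**Figure D2:**
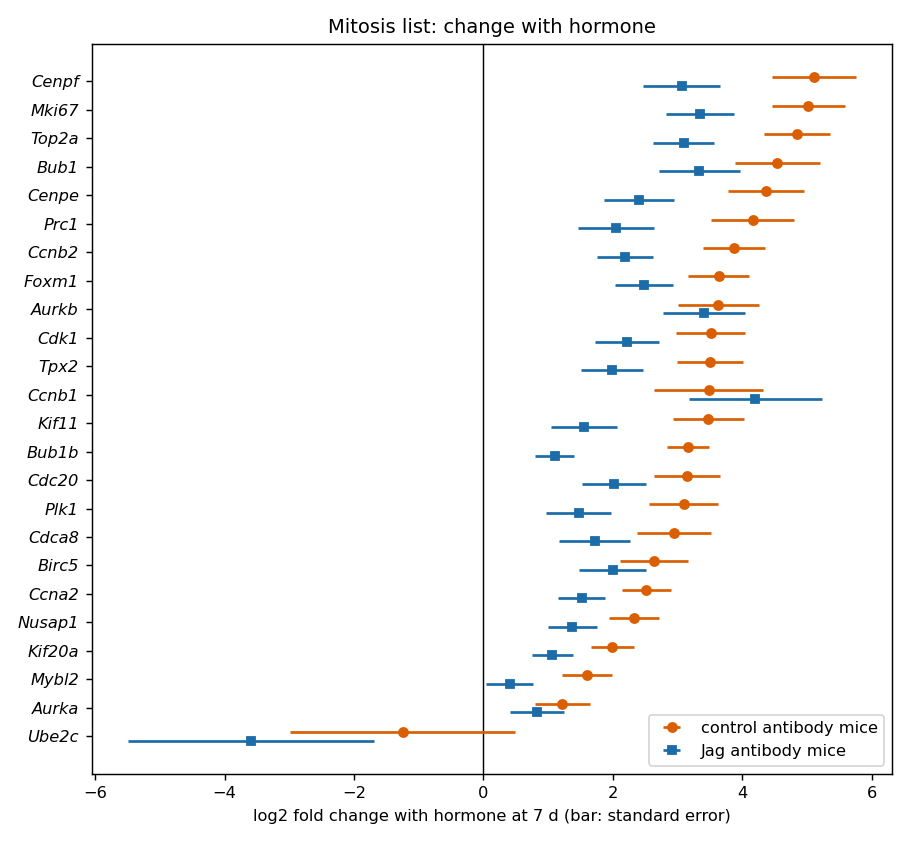
Log2 fold change with hormone at 7 d (horizontal axis, with its standard error) of the 24 members of the mitosis list, in control antibody mice (circles) and in Jag antibody mice (squares). All members but Ube2c lie to the right of 0 in both kinds of mice, and most circles lie to the right of their square.

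Genes of DNA replication, which act in S phase, rose in 14 of 19 members (20.3% of all genes tested) and fell in 1 (22.9%), with a median of 1.69. The hormone mice lay above all 15 control mice in 2 members (1.58% of all genes). Members higher than in the 5 d mice numbered 11 (10.3% of all genes), with a median of 1.03. Those higher than in the 15 h mice numbered 6 (7.32%), with a median of 0.52. None was lower in either comparison. Rrm2, the regulated subunit of the enzyme that makes deoxyribonucleotides, rose from a range of 0.703 to 1.39 CPM to one of 3.98 to 8.98 CPM (log2 fold change 2.80, SE 0.38, adjusted p = 2.74e-06) and lay beyond all 15 control mice. Mcm2 and Mcm5, subunits of the replicative helicase, rose 3.92-fold and 6.21-fold, and their values did not overlap between the groups. Ccnd1, cyclin D1, which opens the cell cycle, rose from a range of 2.91 to 10.6 CPM to one of 22.5 to 47.9 CPM. Gmnn, the inhibitor of replication licensing, was the member that fell (log2 -0.91, SE 0.31, adjusted p = 0.0185), a call lost with length and GC trends removed (adjusted p = 0.44). E2F letters (TTTGGCGC or TTTCGCGC, either strand) were found in 5 of 16 promoters of 15 members (31.25%) and in 1.395% of promoters of tested genes.

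Which cells carried these transcripts cannot be read from bulk tissue. Many markers of macrophages, monocytes, endothelial cells and fibroblasts were higher in the same mice, while 2 endothelial markers were lower. The values are given below, and the part of these cells in the rise of the mitosis and replication genes was not tested.

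Of 9 tested genes known to be induced by thyroid hormone in various tissues, 3 rose (Hr, Klf9 and Cpt1a) and 1 fell (Thrsp). The other 5 were not called, and the share called is close to the 43.2% of all genes. Hr encodes a nuclear corepressor and is one of the most direct targets of the receptors. It stood at 71.8, 85.8, 112, 99.8 and 116 CPM with hormone and at 24.1, 12.5, 17.9, 17.98 and 27.7 CPM without, a 4.84-fold rise (log2 2.28, SE 0.30, adjusted p = 1.9e-06). The groups were far apart, and the hormone mice also lay above the 5 d mice (24.7 to 39.9 CPM) and the 15 h mice (19.1 to 26.8 CPM).

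Klf9, a transcription factor induced by T3 and by glucocorticoids, rose 2.61-fold, from a range of 24.3 to 61.4 CPM to one of 94.7 to 159 CPM (adjusted p = 0.00142), and was not called against the 5 d mice (log2 fold change 0.81, adjusted p = 0.0698). Cpt1a, the gate for fatty acid entry into mitochondria in liver and other tissues, rose 3.05-fold, from a range of 8.37 to 14.3 CPM to one of 27.1 to 45.0 CPM. Thrsp, which promotes lipid synthesis, fell from a range of 7067 to 14343 CPM to one of 2710.3 to 4734 CPM (log2 -1.46, SE 0.53, adjusted p = 0.0261). That call was lost with length and GC trends removed (adjusted p = 0.0922) and without any one of mice 2 and 4 without hormone or mice 3 and 5 with hormone. The receptor half-site AGGTCA, on either strand, was found in 1 of 10 promoters of 8 of these genes (10%) and in 13.11% of promoters of tested genes.

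Among 14 genes of hormone receptors, activation and transport, 2 rose and 3 fell, near the 20.3% and 22.9% of all genes tested. Ncor1 rose (log2 1.10, SE 0.27, adjusted p = 0.00148) without overlap between the groups. Dio3 rose too (log2 3.72, SE 1.11, adjusted p = 0.00722), with overlap and at a mean log2 CPM of only -2.27. Thra, the receptor gene, stood at 75.9, 64.5, 55.8, 69.7 and 56.4 CPM with hormone and at 78.3, 106, 84.3, 98.0 and 105 without. The hormone mice were all below the mice without hormone, by a small margin (log2 -0.55, SE 0.21, adjusted p = 0.0309), and the call was lost when any one of mice 2, 4 and 5 without hormone or 2, 3 and 5 with hormone was left out. Thrb was not called (45.7 to 71.3 against 16.3 to 55.3 CPM, adjusted p = 0.168). Rxrg, a retinoid X receptor, fell 2.01-fold, from a range of 29.1 to 66.5 CPM to one of 17.1 to 33.1 CPM. Dio2 was widely spread in both groups, at 101 to 287 CPM with and 90.4 to 369 without hormone, and no change was detectable (log2 -0.33, SE 0.63, adjusted p = 0.698).

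**Figure D3:**
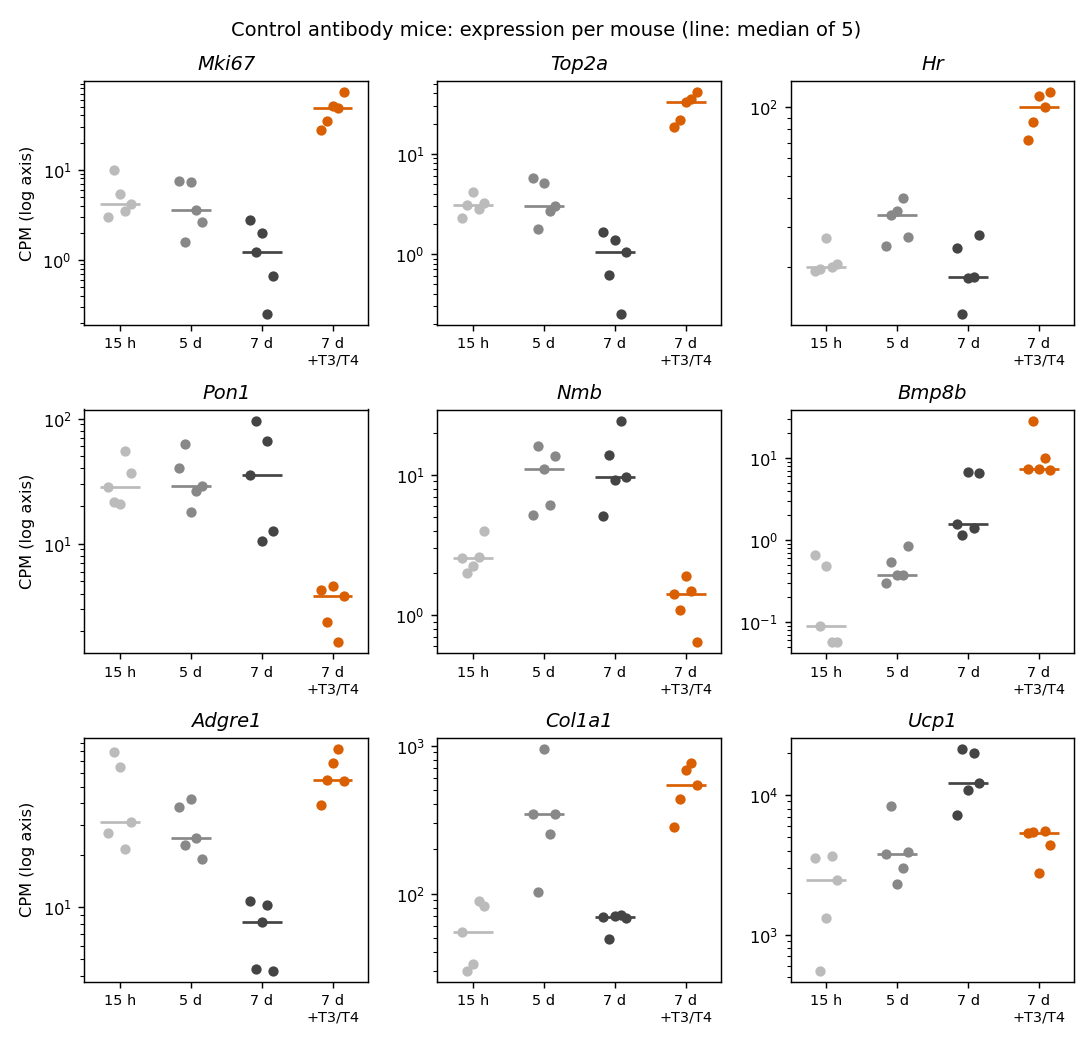
Expression of 9 genes in CPM (log axis) in each control antibody mouse at 15 h, 5 d and 7 d without hormone (greys) and at 7 d with hormone (orange). Points are mice and lines the median of 5. Mki67, Top2a and Hr lie above all 15 control mice in the hormone group, Pon1 and Nmb below them, and Bmp8b above them by a narrow margin. Adgre1, Col1a1 and Ucp1 differ from the 7 d mice but overlap the range of the 5 d mice.

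Most marker transcripts of the brown adipocyte were lower in the hormone mice. Of 8 marker genes 6 fell (22.9% of all genes tested) and none rose (20.3%), with a median log2 fold change of -1.86. The 2 not called were Ebf2 (log2 0.77, adjusted p = 0.0598) and Zic1 (log2 0.40, adjusted p = 0.45). With length and GC trends removed 5 of the 8 fell (median -0.99). The summed level of the 8 markers was 4899 to 9260.1 CPM with and 15175 to 46111 CPM without hormone, without overlap (exact permutation p = 0.00794, adjusted 0.0249). None of these defining markers of the labelled tissue was at 0 in any of the 20 control antibody mice. The mice without hormone at 7 d had the highest sums: the 5 d mice ran from 6976 to 21936 CPM and the 15 h mice from 2519.7 to 10566 CPM. The hormone mice lay within the range of the 15 h mice and reached below that of the 5 d mice.

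Ucp1 stood at 5307, 5417, 2787, 5519 and 4369 CPM with hormone. Without hormone it stood at 7140.1, 21295, 10809, 20023 and 12145 CPM, above every hormone mouse. The fall was 3.05-fold (log2 -1.61, SE 0.42, adjusted p = 0.00229), and it was not called with length and GC trends removed (log2 -0.94, adjusted p = 0.0547). Against the 5 d mice, at 2298 to 8277 CPM, the value was 0.14 (adjusted p = 0.825), and against the 15 h mice, at 554 to 3671 CPM, it was 1.02 (adjusted p = 0.0854). Ucp1 was called against neither earlier group.

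Cidea, a lipid droplet protein of brown fat, fell from a range of 3321 to 7526 CPM to one of 760.0 to 1601 CPM, and was lower than in the 5 d mice too (log2 -1.23, adjusted p = 0.0171). Elovl3, an elongase of very long fatty acids that cold strongly induces, stood at 41.1, 75.8, 10.96, 25.9 and 6.63 CPM with and 184, 492, 409.9, 404 and 353 CPM without hormone. It fell 11.5-fold (adjusted p = 0.00178), but the hormone mice overlapped the 5 d mice (21.6 to 93.5 CPM), with hormone mice 3 and 5 below the lowest of these, and the level was higher than in the 15 h mice (0.365 to 16.2 CPM, log2 2.89, adjusted p = 0.0208). Cox8b and Cox7a1, tissue-restricted subunits of cytochrome oxidase, fell 7.33-fold and 3.88-fold. Corrected for length and GC content, the log2 fold changes were -1.29 for Cidea, -1.61 for Cox8b and -0.80 for Cox7a1, against -2.05, -2.87 and -1.96. Leaving out mouse 4 without hormone gave -2.22 for Cox8b, and leaving out hormone mouse 2 gave -4.12 for Elovl3. Of the wider list of 18 identity and thermogenic genes, 7 fell (22.9% of all genes tested) and 1 rose. The riser was Ppara (log2 1.24, SE 0.42, adjusted p = 0.0162), whose groups did not overlap. Among the 10 not called were Prdm16, Ppargc1a and Lhx8 (log2 0.19, 0.32 and -0.01).

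Adrenergic receptors moved in different directions. Adrb3, the main beta receptor of adipocytes, stood at 213, 247, 159, 203 and 98.6 CPM with and 485, 378, 405, 438 and 444 CPM without hormone and fell 2.34-fold (log2 -1.22, SE 0.36, adjusted p = 0.00614). The groups did not overlap, and Adrb3 was not called against the 5 d mice (adjusted p = 0.375). Adra1a, an alpha-adrenergic receptor, rose by 0.62 on the log2 scale (adjusted p = 0.0253), a call lost with length and GC trends removed (log2 0.08) and without mouse 4 or mouse 5 without hormone. Crem, a cAMP-inducible repressor, fell 1.74-fold, from a range of 18.7 to 26.7 CPM to one of 10.9 to 15.98 CPM, and was also lower than in the 5 d and 15 h mice (adjusted p = 0.0208 and 0.00981). The list of 17 adrenergic and cAMP genes held 2 that rose and 2 that fell.

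Most nuclear genes of the respiratory chain and of the mitochondrial ribosome fell. Of 77 nuclear-encoded subunits of the respiratory chain 72 fell (22.9% of all genes tested) and none rose (20.3%), with a median of -1.83. Ndufb7 of complex I stood at 97.5 to 237 CPM with and 370.1 to 1531 without hormone. Atp5e of the ATP synthase stood at 263 to 635 against 889 to 4965 CPM. Of 76 mitochondrial ribosomal proteins 75 fell (median -1.39), and Mrpl52 fell by 2.33 on the log2 scale.

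These lists hold short genes, with median exonic lengths of 1587 and 2541 bases. With length and GC trends removed, 71 and 73 members fell, with medians of -1.01 and -1.06. In the shortest quintile of genes, 36.4% then fell and the median was -0.25. The log2 fold change of Atp5e was then -1.76 and that of Mrpl52 -1.48, against -2.42 and -2.33. Atp5e stood at -1.80 without mouse 4 without hormone. Against the 5 d mice 50 and 43 were lower (13.5% of all genes tested). Against the 15 h mice none of either list was lower (8.3%), and the medians were -0.03 and -0.10.

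Of the 13 messenger RNAs of the mitochondrial genome 10 fell (22.9% of all genes tested), with a median of -1.32. With length and GC trends removed 2 fell and 1 rose (median -0.09). None of the 13 was called against the 5 d mice (23.8% of all genes), and 10 were lower than in the 15 h mice (8.3%). The share of counts from the mitochondrial genome was 10.8 to 15.5% with and 15.9 to 25.2% without hormone, without overlap (exact permutation p = 0.00794, adjusted 0.0249). In the 5 d mice it was 9.72 to 15.5% and in the 15 h mice 19.2 to 26.0%. Proteasome subunits fell in 28 of 37 (22.9% of all genes), with a median of -0.72, and in 23 with length and GC trends removed (median -0.50). Psmb3 fell from a range of 15.96 to 39.4 CPM to one of 7.35 to 13.9 CPM.

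Cytosolic ribosomal proteins fell in 44 of 65 (22.9% of all genes tested), with a median of -1.24. They fell in 24 with length and GC trends removed and in 16 without mouse 4 without hormone. Rpl37 is an example, at 1.31 to 3.08 against 4.44 to 24.4 CPM (log2 -2.22, and -1.61 without that mouse). These genes have many near-identical processed copies in the genome and made up under 1% of counts in every control antibody library, so their levels are uncertain.

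**Figure D4:**
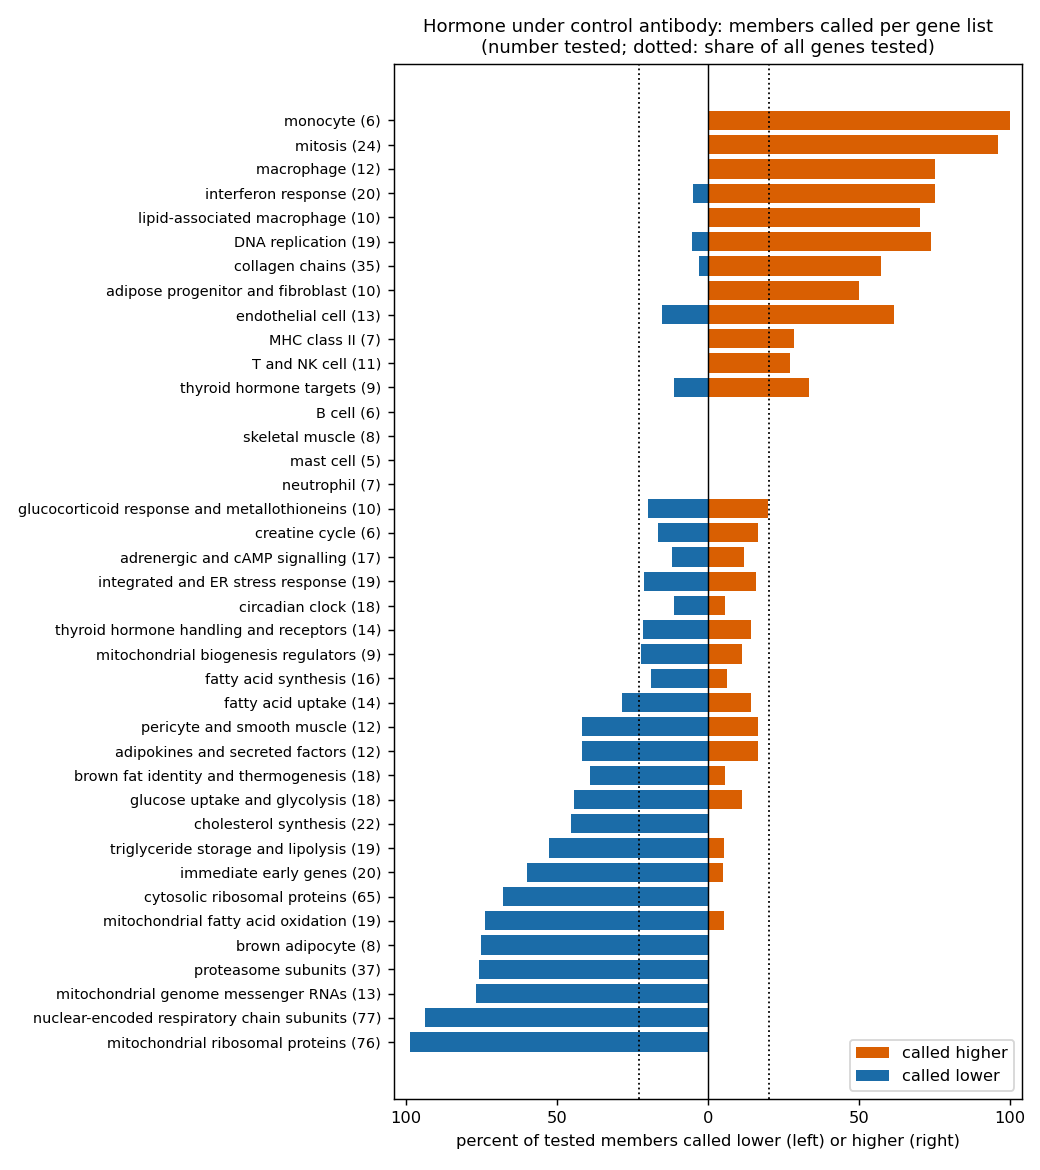
Percent of the tested members of each gene list called higher (orange, to the right) or lower (blue, to the left) with hormone under control antibody. The number tested stands in brackets, and dotted lines mark the shares of all genes tested, 20.3% higher and 22.9% lower. Monocyte, mitosis and macrophage lists stand at the top, and mitochondrial ribosomal and respiratory chain lists at the bottom.

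Genes of fat handling were mostly lower or not called. In mitochondrial fatty acid oxidation 14 of 19 genes fell and 1 rose, the latter being Cpt1a. Against the 5 d mice 2 of the 19 were lower and 1 higher. Against the 15 h mice none was lower and 3 were higher. Eci1, an isomerase for unsaturated fatty acids, fell from a range of 761 to 1383 CPM to one of 239 to 431 CPM (adjusted p = 4.3e-05). In triglyceride storage and lipolysis 10 of 19 fell and 1 rose. Against the 5 d mice 5 of these 19 were lower and 1 higher, and against the 15 h mice 2 were lower and 3 higher. G0s2, an inhibitor of the main triglyceride lipase, stood at 141, 90.9, 128, 285 and 88.0 CPM with and 286, 1104, 910.5, 1756 and 842 CPM without hormone and fell 6.70-fold (adjusted p = 2.53e-05), with the highest hormone mouse just below the lowest mouse without hormone. Cidec, which enlarges lipid droplets, fell 3.26-fold, and was lower than in the 5 d and 15 h mice as well (adjusted p = 9.14e-05 and 0.0263). Fabp4, the fatty acid carrier of adipocytes, fell from a range of 16946 to 38179 CPM to one of 5513 to 8168 CPM, and Lrp1, a receptor for lipoprotein remnants and many other ligands, rose 3.40-fold. After the length and GC correction the log2 fold change was -1.88 for G0s2 and 0.94 for Lrp1, against -2.74 and 1.77, and both were called. In fatty acid uptake 4 of 14 genes fell and 2 rose, near the 22.9% and 20.3% of all genes tested. Leaving out hormone mouse 4 the fallen numbered 7.

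Few genes of fatty acid synthesis were called. Fasn, the fatty acid synthase, stood at 11882 to 23849 CPM with and 12441 to 17157 CPM without hormone (log2 0.17, SE 0.74, adjusted p = 0.873). Acaca and Acly, the enzymes that supply malonyl-CoA and acetyl-CoA, had log2 fold changes of -0.43 (adjusted p = 0.552) and -0.25 (adjusted p = 0.805). With length and GC trends removed the values were -0.48 for Fasn and -1.16 for Acaca, not called. Of 16 members 3 fell and 1 rose. Slc25a1, the mitochondrial citrate carrier, fell 3.76-fold (adjusted p = 0.00221). Against the 15 h mice 9 members were higher in the hormone group, Fasn by 3.27 on the log2 scale (adjusted p = 0.00559). Cholesterol synthesis genes fell in 10 of 22 and rose in none. Against the 5 d mice 3 of them were higher and 1 lower (10.3% and 13.5% of all genes tested), with a median of 0.47. Against the 15 h mice 6 were higher and none lower (7.32% and 8.3%), with a median of 0.32. Insig1, a feedback sensor of that pathway, stood at 155, 138, 85.8, 98.7 and 75.4 CPM with and 507, 746, 301, 220.5 and 392 CPM without hormone and fell 3.92-fold. In glucose uptake and glycolysis 8 of 18 fell and 2 rose. Ldha, a lactate dehydrogenase subunit, was among those that fell (2.61-fold). When hormone mouse 3 was left out, or hormone mouse 5, the fallen glycolytic genes numbered 5. Against the 5 d mice 3 glycolytic genes were higher and 2 lower, and against the 15 h mice 7 were higher and none lower.

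Secreted proteins of adipocytes fell in 5 of 12 and rose in 2. Adipoq, adiponectin, stood at 603, 539, 545, 594 and 498 CPM with and 1801, 2184, 1621, 2365 and 1467 CPM without hormone, a 3.40-fold fall with no overlap (log2 -1.76, SE 0.25, adjusted p = 6.05e-06). It was also lower than in the 5 d mice (log2 -1.61, adjusted p = 0.00014) and the 15 h mice (log2 -1.43, adjusted p = 0.000173). Cfd, the complement protease adipsin, fell 4.22-fold. Corrected for length and GC content, the log2 fold changes were -1.05 for Adipoq and -1.33 for Cfd (from -2.08), and both were called. Fgf21, an endocrine regulator of energy use, was rare, at 0.456 to 5.97 CPM without hormone and 0 to 0.178 CPM with it, and the 5 d mice, at 0.0267 to 0.407 CPM, overlapped the hormone mice.

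Bmp8b, a factor made by mature brown adipocytes that sensitises them to adrenergic input, went the other way. It stood at 7.31, 28.5, 7.39, 10.0 and 7.13 CPM with hormone, with mouse 2 far above the rest, and at 1.55, 1.14, 6.67, 1.39 and 6.51 CPM without. The highest mouse without hormone lay just below the lowest hormone mouse (log2 1.78, SE 0.59, adjusted p = 0.0138). Leaving out hormone mouse 2, the log2 fold change was 1.19 and was not called (adjusted p = 0.105). At 5 d and 15 h Bmp8b was nearly absent, at 0.300 to 0.839 and 0.0569 to 0.649 CPM.

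Macrophage and monocyte genes were higher in the hormone mice than in the 7 d mice without it. Of 12 macrophage markers 9 rose (median 2.14), and of 6 monocyte markers 6 (median 3.33), with none lower. In limma on log2(FPKM + 1) 1 monocyte marker was called. The summed macrophage markers were 437 to 888 CPM with and 147 to 339 CPM without hormone, and the monocyte markers 45.3 to 125 against 5.24 to 13.3 CPM. Neither sum overlapped between the groups (each exact permutation p = 0.00794, adjusted 0.0249). Here too the 7 d mice without hormone stood apart. Macrophage sums were 403 to 949 CPM at 5 d and 261 to 941 CPM at 15 h, and monocyte sums 16.1 to 43.9 and 29.5 to 1156 CPM. The hormone mice were above the 5 d mice in the monocyte sum only, and inside the 15 h range in both.

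Adgre1, the macrophage surface protein F4/80, stood at 39.2, 54.5, 68.6, 82.6 and 54.1 CPM with and 10.9, 4.39, 8.26, 10.4 and 4.31 CPM without hormone. The groups were well separated, with a 7.83-fold rise (log2 2.97, SE 0.56, adjusted p = 0.000123), and the gene was not called against the 5 d mice (19.0 to 42.3 CPM, adjusted p = 0.142). Cd68, a lysosomal protein of phagocytes, rose 6.49-fold, and Csf1r, the receptor for the macrophage growth factor, 4.002-fold. Ccr2, the receptor that brings monocytes into tissue, rose from a range of 1.77 to 6.99 CPM to one of 19.8 to 49.7 CPM, and the kinase gene Fgr from a range of 0.114 to 0.480 CPM to one of 4.90 to 12.2 CPM. Both were lower in the hormone mice than in the 15 h mice (log2 -2.59 and -2.43, adjusted p = 0.00263 and 0.0287), among which they reached 18.4 to 619.7 and 1.46 to 145 CPM.

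Lipid-associated macrophages, a state first described in obese fat, were represented by 10 genes, of which 7 rose and none fell. Gpnmb, a lysosomal glycoprotein, stood at 51.9, 33.7, 59.7, 206 and 48.1 CPM with and 9.02, 5.27, 5.13, 11.4 and 5.21 CPM without hormone, an 11.1-fold rise (adjusted p = 0.000195), and was higher than in the 5 d mice (log2 2.03, adjusted p = 0.0219). Trem2, the lipid-sensing receptor of this state, rose 6.82-fold, and Spp1, osteopontin, 10.5-fold, the latter with a lower level than in the 15 h mice (log2 -2.99, adjusted p = 0.0332). Hormone mouse 4 was the highest for all 3 of these genes, and without it the log2 fold changes were 2.78 for Gpnmb, 2.14 for Trem2 and 2.63 for Spp1, against 3.48, 2.77 and 3.39. Spp1 stood at 4.09 without mouse 1 without hormone and at 4.10 with length and GC trends removed. Each of these values was called.

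The 12 genes with the largest rise, among called genes of at least moderate expression whose groups did not overlap, included Adam8 (24.6-fold), Siglec1 (21.1-fold), Mmp12 (19.9-fold), Pik3ap1 (19.7-fold), Ccr1 (13.9-fold), Tlr13 (14.1-fold) and Ms4a6c (13.7-fold). The others were Mki67 and Top2a, the matrix protein gene Tnc (18.5-fold), the heparanase gene Hpse (15.1-fold) and the lipid flippase gene Atp8b4 (14.4-fold). Leaving out hormone mouse 4, the log2 fold change of Pik3ap1 was 3.65 (from 4.30), and without mouse 4 without hormone that of Tnc was 4.83 (from 4.21). Apart from Mki67 and Top2a, none of the 12 lay beyond all 15 control mice.

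Interferon response genes rose in 15 of 20 and fell in 1 (median 2.01), and in 7 in limma on log2(FPKM + 1). Against the 5 d mice 2 were higher, and against the 15 h mice none (median -1.16). Irf7, the transcription factor that amplifies the response, stood at 32.6, 25.1, 70.9, 188 and 36.8 CPM with and 7.84, 7.90, 12.0, 20.1 and 7.32 CPM without hormone, and mouse 4 was the highest of each group. Mx1, an antiviral GTPase, and Oasl2, of the oligoadenylate synthetase family, rose 12.7-fold and 7.38-fold. Leaving out hormone mouse 4, the log2 fold changes were 1.94 for Irf7 and 3.08 for Mx1, against 2.69 and 3.67, and without mouse 4 without hormone that of Mx1 was 4.42. The member that fell was Ifi27l2a, a mitochondrial interferon-induced protein, at 43.4, 60.9, 156, 162 and 81.8 CPM with and 860.4, 916, 366, 2175 and 575 CPM without hormone. It fell 9.69-fold (log2 -3.28, SE 0.52, adjusted p = 1.98e-05) and lay below all 15 control mice (0.708% of all genes). After the length and GC correction the value for Ifi27l2a was -2.10 (adjusted p = 3.85e-05).

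No member of the neutrophil, B cell or mast cell lists was called, out of 7, 6 and 5 tested, and summed neutrophil markers were 7.95 to 27.3 CPM with and 5.53 to 20.6 CPM without hormone. Of 11 T and NK cell markers 3 rose, Gzma, Klrb1c and Ncr1 (log2 3.17, 3.03 and 3.90), and the other 8 were not called. None of these 3 overlapped between the groups, at low mean log2 CPM of 0.61, -0.49 and -0.92. The sums of the 11 markers were 7.26 to 27.1 CPM with and 3.06 to 7.60 CPM without hormone (exact permutation p = 0.0159, adjusted 0.0349), overlapping between the groups. Of 7 genes of MHC class II, which present antigen, 2 rose. The counts of the T and NK and MHC class II lists stand beside 20.3% of all genes that rose. Of 4 erythroid markers 3 fell (1 with length and GC trends removed), with sums of 155 to 546 CPM with and 384 to 1477 CPM without hormone. No mesothelial or hepatocyte marker was called, out of 2 and 3 tested. Skeletal muscle markers varied from 1.81 to 13074 CPM with and from 4.001 to 22997 CPM without hormone, and no member was called.

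**Figure D5:**
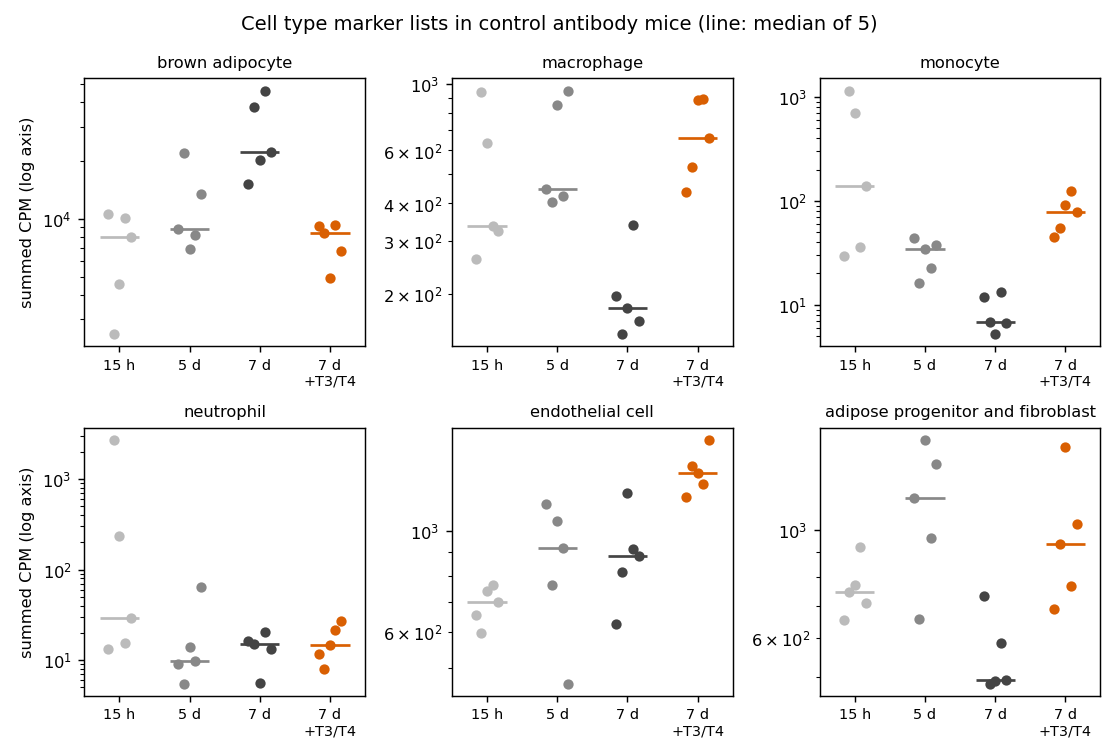
Summed CPM (log axis) of 6 cell type marker lists in each control antibody mouse at 15 h, 5 d and 7 d without hormone (greys) and at 7 d with hormone (orange), with lines at the median of 5. At 7 d the hormone mice lie below the untreated mice for brown adipocyte markers and above them for macrophage and monocyte markers, neutrophil sums overlap, and endothelial and fibroblast sums overlap in part.

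Most collagen chains were higher. Collagen chains rose in 20 of 35 and fell in 1 (median 1.62, and 1.17 with length and GC trends removed). Col1a1, a chain of the main fibrillar collagen, stood at 281, 432, 682, 761 and 544 CPM with and 69.8, 49.6, 70.2, 71.4 and 68.6 CPM without hormone, an 8.19-fold rise (log2 3.03, SE 0.43, adjusted p = 6.27e-06). The hormone mice were all above the 7 d mice and above the 15 h mice (30.1 to 88.6 CPM), but overlapped the 5 d mice (102 to 946 CPM, adjusted p = 0.424). Col3a1 rose 5.51-fold, Col14a1 8.84-fold and Col12a1 7.28-fold, and of these Col12a1 was called against the 5 d mice (adjusted p = 0.000473). With length and GC trends removed the log2 fold changes were 1.78 for Col3a1 (from 2.46) and 2.13 for Col12a1 (from 2.86), both called. Over the list 8 were higher and 2 lower than at 5 d (10.3% and 13.5% of all genes tested), with a median of 0.36. Against the 15 h mice 20 were higher (7.32%) and none lower, with a median of 1.55.

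Of 10 markers of adipose progenitors and fibroblasts 5 rose. Pdgfra, the receptor that marks these cells, stood at 54.6, 80.5, 96.9, 64.5 and 78.3 CPM with and 23.6, 14.8, 22.5, 9.75 and 17.8 CPM without hormone, a 4.22-fold rise (adjusted p = 9.41e-07), and was higher than at 5 d and 15 h too (adjusted p = 0.0235 and 0.0082). Fbn1, fibrillin, rose 6.18-fold (log2 2.63, and 1.87 with length and GC trends removed). The summed markers were 690.4 to 1477 CPM with and 485 to 733 CPM without hormone, with overlap (exact permutation p = 0.0159, adjusted 0.0349).

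Endothelial markers rose in 8 of 13 and fell in 2, with 5 higher and 2 lower once length and GC trends were removed. Emcn fell (log2 -1.08, SE 0.19, adjusted p = 6.03e-05) without overlap between the groups, the smallest adjusted p of the list. Egfl7 fell as well (log2 -0.79, SE 0.26, adjusted p = 0.0132). Cdh5, the cadherin of endothelial junctions, stood at 235, 246, 296, 254 and 340.0 CPM with and 68.9, 86.4, 154, 71.2 and 111 CPM without hormone (log2 1.48, SE 0.30, adjusted p = 0.000277) and lay above all 15 control mice. Pecam1, the adhesion molecule CD31, rose 1.63-fold (adjusted p = 0.00548) and lost its call with length and GC trends removed (adjusted p = 0.0759). In pericytes and smooth muscle 2 of 12 markers rose and 5 fell. Pdgfrb, the receptor of mural cells, stood at 76.2, 81.6, 87.9, 80.7 and 92.8 CPM with and 27.5, 34.6, 39.9, 34.7 and 32.7 CPM without hormone, a 2.48-fold rise with a narrow spread in each group (adjusted p = 2.42e-06), and lay above all 15 control mice. The contractile genes Acta2 and Tagln fell 3.64-fold and 6.84-fold, and Tagln had a log2 fold change of -2.13 without mouse 4 without hormone (from -2.77). The fallen markers numbered 2 with length and GC trends removed or without mouse 4 without hormone, and 3 leaving out hormone mouse 3.

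S100b, a calcium-binding protein of Schwann cells that adipocytes also make, stood at 52.1, 51.9, 33.6, 53.0 and 46.1 CPM with and 237, 303, 111, 375 and 183 CPM without hormone. It fell 5.10-fold (log2 -2.35, SE 0.30, adjusted p = 1.31e-06, and log2 -1.62 with length and GC trends removed) and lay below all 15 control mice, while the other 3 tested markers of Schwann cells were not called.

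Pon1, a lactonase best known from liver and plasma, stood at 4.29, 2.35, 4.56, 1.63 and 3.81 CPM with and 35.6, 96.6, 10.5, 66.2 and 12.7 CPM without hormone. The hormone mice were below the 5 d (18.01 to 62.4 CPM) and 15 h mice (20.6 to 54.7 CPM) as well, and the fall was 13.3-fold (log2 -3.73, SE 0.55, adjusted p = 1.03e-05). Nmb, neuromedin B, a small peptide signal, stood at 1.41, 1.08, 1.89, 1.49 and 0.641 CPM with and 5.07, 14.0, 9.23, 24.4 and 9.66 CPM without hormone and fell 9.504-fold (adjusted p = 4.43e-07), again below all 15 control mice. Corrected for length and GC content, the log2 fold change of Nmb was -2.28, from -3.25. The others of the 12 genes with the largest fall, chosen in the same way, were Fosb, Elovl3 and Ifi27l2a, the lysolipid transporter gene Mfsd2a (11.2-fold), the histone gene Hist1h4h (10.97-fold), Ttc25 (11.5-fold), Ier3 (8.67-fold), Gstp3 (8.38-fold), the organic cation transporter gene Slc22a2 (7.89-fold) and the mitochondrial carrier gene Slc25a34 (7.51-fold). None of these lay beyond all 15 control mice except Ifi27l2a. After the length and GC correction Hist1h4h, Ier3 and Gstp3 had log2 fold changes of -2.28, -2.24 and -2.21, against -3.45, -3.12 and -3.07, and all 3 were called. Without mouse 4 without hormone Hist1h4h had -2.84, and leaving out hormone mouse 3, Mfsd2a had -4.17 (from -3.49).

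Immediate early genes, which respond within minutes to cell stimulation and to handling of tissue, fell in 12 of 20 and rose in 1. Fosb stood at 3.33, 2.51, 2.59, 2.75 and 3.85 CPM with and 271, 57.0, 11.3, 40.8 and 59.6 CPM without hormone (log2 -4.87, SE 1.08, adjusted p = 0.000653), and the 5 d mice, at 0.168 to 3.72 CPM, were as low as the hormone mice. Fos and Egr2 overlapped between the groups, at 5.67 to 16.8 against 2.34 to 270.3 CPM and 1.41 to 3.61 against 1.20 to 83.7 CPM. Mouse 1 without hormone held the highest value of all 3 genes. Without it Fosb had a log2 fold change of -3.81, Fos and Egr2 were not called (log2 -0.95 and -1.25, from -2.82 and -3.05; adjusted p = 0.254 and 0.158) and 7 members of the list fell.

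Of 10 genes of the glucocorticoid response, metallothioneins included, 2 rose and 2 fell, near the 20.3% and 22.9% of all genes tested. Fkbp5 and Zbtb16, both induced by glucocorticoids, rose 6.11-fold and 4.90-fold, from a range of 2.55 to 10.4 CPM to one of 19.9 to 73.8 CPM and from a range of 6.23 to 17.1 CPM to one of 21.5 to 85.6 CPM. Neither was called against the 5 d mice (adjusted p = 0.348 and 0.193). Mt1, a metallothionein, fell 3.99-fold and lost its call with length and GC trends removed (adjusted p = 0.0505). Sgk1, a kinase gene that glucocorticoids also induce, fell by 0.78 on the log2 scale (adjusted p = 0.00662). Of 19 genes of the integrated and ER stress response 3 rose and 4 fell. Atf4, the transcription factor of the integrated stress response, stood at 94.3 to 134 CPM with and 227 to 414 CPM without hormone and fell 2.49-fold, and Ddit3 (CHOP) fell 2.28-fold. Genes of the creatine cycle and of mitochondrial biogenesis gave 1 rise and 1 fall of 6, and 1 rise and 2 falls of 9. These counts too lie near the shares of all genes tested. Of 18 clock genes 1 rose and 2 fell: Nr1d1 (REV-ERBalpha) rose from a range of 41.2 to 91.5 CPM to one of 84.3 to 197 CPM, a call lost without mouse 4 without hormone (adjusted p = 0.0588), and Nfil3 fell 3.19-fold. Nr1d1 overlaps Thra on the opposite strand, and whether counting used strand is not given in the sources used here, so reads of the pair may be mixed.

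The same hormone treatment in Jag antibody mice, which share no mouse with this comparison, called 732 genes higher (4.29%) and 890 lower (5.21%). Mitosis genes rose there in 20 of 24 (median 2.01) and collagen chains in 16 of 35, while of the respiratory chain list 1 fell and of the macrophage list 2 rose. Hr, Pon1 and Nmb changed by 1.92, -3.49 and -2.80 on the log2 scale (adjusted p = 5.83e-05, 7.05e-05 and 9.73e-06). Adipoq changed by -1.24 and Adrb3 by -3.40 (adjusted p = 0.00137 and 1.49e-06). Ucp1 and Adgre1 had values of -0.80 (adjusted p = 0.2) and 1.69 (adjusted p = 0.038).

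A direct test of the difference between the kinds of mice, as an interaction in edgeR, called 1 gene (0.00586% of those tested), with 2103 at an unadjusted p under 0.05. For the other genes, a call in 1 kind of mouse and not in the other is not shown to be a difference. The called gene was Eva1a, a membrane protein linked to autophagy. In control antibody mice it stood at 2.87, 2.93, 3.69, 2.75 and 2.17 CPM with and 2.99, 8.61, 7.86, 7.22 and 7.37 CPM without hormone, where mouse 1 overlapped the hormone mice, and fell 2.35-fold. In Jag antibody mice it changed by 0.90 on the log2 scale (adjusted p = 0.03). The difference of the changes was -2.14 (SE 0.39, adjusted p = 0.0494), and 0 genes were called when only these 4 groups were fitted.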

How the data were processed

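Brown fat RNA of 40 mice, 5 in each of 8 groups, was sequenced as single reads of 50 bases, and groups and mouse numbers were taken from the sample titles. Raw counts and FPKM values of 52636 genes were deposited by the authors for each sample; the submitters' processing notes name GSNAP and limma with no version, and the counting tool, genome build and use of strand are not given in the sources used here. Gene symbols were found for 52403 of the identifiers. Every replicate is a mouse, so p-values measure the spread between mice.

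From the counts, edgeR 4.0.16 (R 4.3.3) was fitted to all 40 libraries with 1 mean per group, TMM scaling, its default filter on low counts and robust quasi-likelihood dispersion. The hormone contrast was tested at an adjusted p of 0.05 (Benjamini-Hochberg over 17079 genes). CPM values are counts scaled to the TMM-adjusted library size, log2 CPM adds a prior count of 2, and a standard error is the log2 fold change divided by the root of F. Library totals of the 10 mice ran from 12217623 to 25301142 counts. Library measures were compared by exact two-sided permutation over 252 arrangements. Trends on exonic length and GC content were removed with a spline of 4 degrees of freedom per library, using GENCODE annotation of GRCm38.

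Alternatives were RLE scaling, no filter, only the 10 mice, a muscle score as a covariate, the replicate number as a block, the length and GC correction with and without that block, DESeq2 1.42.0, limma 3.58.1 on log2(FPKM + 1) of the deposited FPKM values, the control mice of 5 d or 15 h in place of those of 7 d, and each mouse left out. On that FPKM scale fold changes of low genes are understated. The requirement to lie beyond all 15 control mice was added after seeing the data. The tests were also run on counts simulated from the group means of these data, with results not given here.

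Named genes were up to 12 per direction with the largest change among called genes whose groups did not overlap and whose mean log2 CPM was 1 or more, and from each list the first 3 genes and up to 4 called members of largest change; those that carry the description are printed. Cenpf, Bub1, Ube2c, Gmnn and Eva1a fall outside that rule and were named after their values were seen. The same holds for Ebf2, Zic1, Ppara, Prdm16, Lhx8, Dio3, Gzma, Klrb1c, Ncr1, Emcn and Egfl7. The counts of named genes below leave out these further genes, and Ncor1 and Ppargc1a with them. The comparison, the gene lists and the named-gene rule were chosen with earlier results of these data known. The 43 lists comprise 22 lists of function, 6 of genes found by name pattern and 15 of cell type markers. A result for 1 gene is not reported here.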

Additional observations from a re-analysis of the deposited data

Results flagged for a closer look

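In groups of 5 mice, a value was singled out when its gap to the nearest mouse exceeded 0.71 of the group's range, which chance gives for about 1 in 20 groups. Of 216 groups over the named genes 6 were singled out, and of 44 groups over library measures 1.

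Among the hormone mice, mouse 2 was high for Bmp8b, at 4.84 log2 CPM with the nearest mouse at 3.34. Among the mice without hormone, mouse 4 was low for Klf9 (4.61, nearest 5.71) and for Thrb (4.04, nearest 5.32). Mouse 2 without hormone was low for Col1a1 (5.64, nearest 6.10). Mouse 5 without hormone was low for Bub1 (-3.37, nearest -1.90), where it held no count. Mouse 1 without hormone was low for Eva1a (1.62, nearest 2.87) and high for the summed mesothelial markers, at 0.93 on a log2 scale with the nearest mouse at 0.33. For the genes other than Bmp8b, the call or its absence held when the mouse singled out was left out.

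The hormone effect on Eva1a differed between control and Jag antibody mice by -2.14 on the log2 scale (SE 0.39, adjusted p = 0.0494, edgeR interaction), a fall of 1.23 against a rise of 0.90. The difference was not called when only these 4 groups were fitted, with the replicate number as a block, or with length and GC trends removed.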

How the results depend on the processing

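Under the 9 changes of processing, the genes called numbered 6523 to 7876 (main 7378), higher genes 2999 to 3844 and lower genes 3300 to 4032. Leaving out 1 mouse gave 5977 to 7543 called, 2766 to 3602 higher and 3211 to 3941 lower, with the fewest without mouse 4 without hormone. Of 102 called named genes, 85 kept call and direction under all changes of processing and 94 when any 1 mouse was left out, and none of the 102 turned direction under either. With length and GC trends removed 6 of them lost the call, in limma on log2(FPKM + 1) 8 did (Atp8b4, Ccr1, Fgr, Fos, Mfsd2a, Mx1, Pik3ap1 and Tlr13), and without a filter 2 did (Thra and Thrsp). The cause was not tested.

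The reference group mattered more. Against the mice of 5 d, 4057 genes were called (1751 higher, 2306 lower), against those of 15 h 2668 (1250 and 1418), and 382 (262 and 120) lay beyond all 15 control mice. Of the 102 genes, 61 kept their call against the 5 d mice and 33 against the 15 h mice. Log2 fold changes of opposite sign against the 15 h mice were Adam8 -0.81, Mmp12 -0.13, Pik3ap1 -0.66, Tnc -0.079, Hpse -0.14, Atp8b4 -1.23, Tlr13 -1.96, Ccr1 -3.62, Ms4a6c -1.79, Elovl3 2.89, Ttc25 1.26, Mfsd2a 2.12, Hist1h4h 0.70, Gstp3 0.12, Thrsp 1.05, Thrb -0.63, Dio2 0.32, Ucp1 1.02, Cox7a1 0.17, Adrb3 0.61, Acaca 2.13, Acly 2.07, Slc25a1 0.92, Ldha 0.22, Ube2c 0.016, Cd68 -0.22, Ccr2 -2.59, Fgr -2.43, Spp1 -2.99, Irf7 -0.45, Mx1 -2.30, Oasl2 -1.21, Acta2 0.082, Zbtb16 -0.64 and Gmnn 0.23, of which Ccr1, Elovl3, Acaca, Ccr2, Fgr and Spp1 were called. Against the 5 d mice they were Fosb 1.23, Dio2 0.052, Ucp1 0.14, Acaca 0.96, Acly 0.62, Fos 0.41 and Egr2 0.078, none called. These groups differ in time too, so hormone and time cannot be told apart there.

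The same replicate numbers recur in both groups, and whether they pair the mice is not known. Over all genes the correlations of same-numbered mice ran from -0.32 to 0.64, with a mean of 0.18 (exact one-sided p = 0.2 over 120 arrangements). Of 5 hormone mice 1 correlated best with its own number. With 5 mice per group this test cannot exclude a pairing. With the number as a block 7424 genes were called (3639 higher, 3785 lower), and 6727 (3143 and 3584) when length and GC trends were also removed. Fos and Egr2 lost their calls with the block. The interaction, 1 gene, gave 0 genes with only these 4 groups, 0 with the block, 0 with length and GC trends removed and 0 with both. Ube2c, not called, turned to 1.18 with the muscle score, 1.97 with the block, 2.20 with the block and length and GC trends, 0.069 in limma and 2.20 without mouse 5 without hormone (-2.29 to 2.20 over the mice left out). Fasn, not called, turned to -0.48 with length and GC trends removed and -0.60 with the block added.

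Counts of called members moved by more than 1.5 times for some short lists. Endothelial genes higher went from 8 to 5 with length and GC trends removed, fatty acid synthesis genes lower from 3 to 5 in the 10 mice alone, fatty acid uptake genes lower from 4 to 7 with the block and length and GC trends, immediate early genes lower from 12 to 7 without a filter or with the block, and pericyte and smooth muscle genes lower from 5 to 3 without a filter. Depth limits low genes: Bub1 and Fgf21 had mice at or near 0 counts, so their fold changes depend on the prior count.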

Other observations

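Some further genes, chosen after their values were seen, differed between the groups. Esr1, the estrogen receptor alpha, ran from 88.3 to 169.9 CPM with and 19.8 to 35.8 CPM without hormone, a 4.81-fold rise (log2 2.27, adjusted p = 6.05e-06, edgeR, and 1.60 with length and GC trends removed). The 5 d mice ran from 23.3 to 65.5 CPM and the 15 h mice from 13.0 to 69.9 CPM. Col6a3, a chain of the microfibrillar collagen VI, stood at 313, 447, 564, 438 and 518 CPM with and 97.9, 59.9, 90.8, 131 and 66.6 CPM without hormone (log2 2.35, and 1.55 with length and GC trends removed). Loxl2, an enzyme that cross-links collagen, rose 4.48-fold, and Rcn1, a calcium-binding protein of the endoplasmic reticulum, 3.31-fold.

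Sctr, the receptor for the gut hormone secretin, which is known to stimulate brown fat, stood at 3.48, 3.78, 3.41, 3.73 and 4.35 CPM with and 16.5, 12.3, 10.5, 27.7 and 10.2 CPM without hormone. All hormone mice were lower (log2 -2.03, SE 0.25, adjusted p = 1.16e-06), and the 5 d and 15 h mice ran from 23.2 to 44.4 CPM and from 10.2 to 24.0 CPM. Nnmt, which methylates nicotinamide, fell 3.81-fold, from a range of 37.2 to 166 CPM to one of 9.43 to 32.4 CPM (log2 -1.93, and -1.27 with length and GC trends removed). No set was tested with these genes, and being chosen by their values they support nothing else.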
